A study of Mus musculus with 39 samples.

Results

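A set of 8 red cell genes was followed through a mouse model of AML1-ETO acute myeloid leukaemia: the carbonic anhydrases Car1 and Car2, the Rh proteins Rhag and Rhd, the surface protein Ermap, the transcription factor Klf1, the anion exchanger Slc4a1 and the water channel Aqp1. They were taken by name, each through the probe set annotated to that symbol alone. All 8 had 1 such probe set, among 22180 genes measured. The leukaemias were started with AE9a, a shortened, alternatively spliced AML1-ETO fusion transcript, and passed through recipient mice 4 times by bone marrow transplantation. One arm carried AE9a with added miR-126 (AE9a+miR-126), one carried AE9a in cells with miR-126 knocked out (miR-126KO+AE9a), and one carried AE9a alone. Each arm had 3 mice at each of passages 1 to 4, and 3 recipient mice of the first passage were the normal controls (NC). In every group, controls included, RNA came from transplanted CD45.1+ donor cells sorted from the marrow of recipients at the end stage. Mouse age and sex, the vector, the donors of each recipient and the kind of cells given to the controls are not stated in the labels. The controls exist at passage 1 only, so later passages were set against passage 1 controls. The number of arrays limits the precision.

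Red cell precursors load themselves with haemoglobin and build a membrane suited to gas transport. Carbonic anhydrases turn carbon dioxide and water into bicarbonate and protons, band 3 (Slc4a1) exchanges the bicarbonate for chloride, Aqp1 passes water, and the Rh proteins form a membrane complex that takes part in ammonium transport. Klf1 and Gata1 are transcription factors that switch on many genes of this programme. In human leukaemia the AML1-ETO fusion is known to disturb the differentiation of blood progenitors, and miR-126 is known as a regulator of stem and progenitor cells.

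All positions are those of GRCm38.p6 in RefSeq. Car1 (chr3:14766214-14808365) and Car2 (chr3:14886269-14900770) are neighbours on chromosome 3, with 77903 bases between them. Rhag lies at chr17:40811099-40844094, Rhd at chr4:134864536-134896172, Ermap at chr4:119175457-119190013, Klf1 at chr8:84901982-84905291, Slc4a1 at chr11:102348820-102365281 and Aqp1 at chr6:55336299-55348555. RefSeq promoter windows were at hand for 5 of the 8 genes (Rhag, Rhd, Ermap, Klf1 and Aqp1). The sequences below are those of these 5 genes, and any link between the letters and the expression values was not tested. They run 5′ to 3′ on the gene's own strand. Capitals mark matches, on either strand, to the GATA motif (AGATAA or AGATAG, and likewise TGATAA or TGATAG) or to a CACCC-type motif of the Kruppel-like factors (CCNCNCCC). For Rhd, Klf1 and Aqp1 the 250 bases before the transcription start are given. The Ermap window stops at the outermost annotated start of the gene. For Rhag only the 30 bases around the match are given, since the match lies past the gene's outermost annotated start.
Rhag, chr17:40811106-40811135, plus strand: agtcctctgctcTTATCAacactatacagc
Rhd, chr4:134864286-134864535, plus strand: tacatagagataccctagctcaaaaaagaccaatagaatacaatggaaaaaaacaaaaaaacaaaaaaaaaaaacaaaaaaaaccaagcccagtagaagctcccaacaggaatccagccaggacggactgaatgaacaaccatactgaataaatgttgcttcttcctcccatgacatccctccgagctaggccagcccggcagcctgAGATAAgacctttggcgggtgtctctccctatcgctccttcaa
Ermap, chr4:119190014-119190245, minus strand: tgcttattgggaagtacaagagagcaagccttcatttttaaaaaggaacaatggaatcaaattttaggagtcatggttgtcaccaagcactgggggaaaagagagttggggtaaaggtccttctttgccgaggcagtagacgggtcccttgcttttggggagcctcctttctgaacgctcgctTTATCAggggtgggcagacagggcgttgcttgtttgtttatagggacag
Klf1, chr8:84901732-84901981, plus strand: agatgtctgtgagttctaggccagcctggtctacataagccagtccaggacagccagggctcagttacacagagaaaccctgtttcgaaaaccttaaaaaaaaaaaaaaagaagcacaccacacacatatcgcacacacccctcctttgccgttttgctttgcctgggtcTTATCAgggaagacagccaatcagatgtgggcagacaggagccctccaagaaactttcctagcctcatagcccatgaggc
Aqp1, chr6:55336049-55336298, plus strand: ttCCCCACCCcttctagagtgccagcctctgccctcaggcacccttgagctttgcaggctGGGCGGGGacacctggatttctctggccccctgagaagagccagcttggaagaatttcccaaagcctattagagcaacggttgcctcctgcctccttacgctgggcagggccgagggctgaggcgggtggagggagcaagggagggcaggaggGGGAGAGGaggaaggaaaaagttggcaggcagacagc

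A GATA match stood in 4 of the 5 windows of 250 bases before the transcription start that RefSeq gives for the window. Its first base lay 31 bases before that start in Rhag, 43 in Rhd, 67 in Ermap and 80 in Klf1. Of these windows, 50 bases in Rhag and 18 in Ermap lie past the outermost annotated start of the gene, the Rhag match among them. Of all 32851 RefSeq mouse promoter windows of the same length, 26.5% hold such a match. The Aqp1 window held 3 matches to CCNCNCCC and no GATA match, and the other 4 windows held no match to CCNCNCCC. Of all windows, 45.9% hold one. This string is not the same as the bare letters CACCC, which were not counted. Those letters stand, on one strand or the other, in the Rhd, Ermap, Klf1 and Aqp1 sequences above. The Aqp1 matches GGGCGGGG and GGGAGAGG do not hold them. A match is a description of the letters only. For reference, the mature mouse miR-126a-3p from RefSeq, with its seed (bases 2 to 8) in capitals, is encoded at chr2:26591402-26591423, plus strand.
miR-126a-3p: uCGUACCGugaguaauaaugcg

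Some arrays stood apart before any gene was considered. Within single arrays the log2 values had an SD of 1.43 to 2.08, and 7 of the 8 arrays under 1.8 were among the AE9a+miR-126 arrays of passages 2 to 4, with all 3 of passage 3. The probe set shared by Mir126a and Egfl7 read 5.90 to 11.56 in AE9a+miR-126 arrays and at most 3.88 elsewhere, normal controls included, so it was high where miR-126 was added and does not check the knockout. Ptprc, which encodes CD45, read 9.31 or more on all arrays. Over all genes, replicate 1 of AE9a passage 4 correlated better with the mean of miR-126KO+AE9a passage 4 (r = 0.9828) than with its own group (r = 0.9806). Replicate 3 of AE9a+miR-126 passage 4 was also closest to miR-126KO+AE9a passage 4 (0.9393, against 0.9242 with its own group), and 2 AE9a+miR-126 arrays, passage 1 replicate 1 and passage 2 replicate 3, were closest to AE9a passage 1.

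Values below are deposited log2 expression values, on which 1 unit stands for a factor of 2. A difference was called at an adjusted p under 0.05 in limma, a linear model with a moderated test, with Benjamini-Hochberg adjustment over all 22180 genes of a comparison; a ± after a difference is its standard error. For each comparison, the share of all genes called in the same direction is given beside the members' count.

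The first question was how the leukaemias differed from normal donor cells. With added miR-126 the whole set was lower than in the controls at every passage. With AE9a alone most of it was lower at passages 1 to 3 and a minority at passage 4. With miR-126 knocked out only part of it was lower at any passage. In AE9a+miR-126, 8 of 8 members were lower at each passage, 32 of 32 differences in all, while 5.18%, 14%, 27.3% and 14.5% of all genes were lower at passages 1 to 4. In miR-126KO+AE9a the lower members numbered 4, 2, 2 and 1 of 8, or 9 of 32, against 5.91%, 8.42%, 4.6% and 3.63% of all genes. In AE9a they numbered 8, 5, 8 and 3 of 8, or 24 of 32, against 5.64%, 5.05%, 4.31% and 2.09% of all genes. No member was called higher than the controls in any group. The median difference of the 8 members at passages 1 to 4 was -2.93, -2.70, -2.53 and -2.85 in AE9a+miR-126, and -1.09, -0.27, -0.19 and 0.0006 in miR-126KO+AE9a. In AE9a it was -2.76, -1.59, -2.78 and -1.39. The medians over all genes in these 12 comparisons lay between -0.02 and 0.10. In RNA from many cells, fewer red cell precursors and less of a transcript in each cell cannot be told apart. Each array was left out in turn, and the one singled out in the text, for its values, is replicate 1 of AE9a passage 4. Without it, 6 members in place of 3 were lower in AE9a at passage 4.

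**Figure D1:**
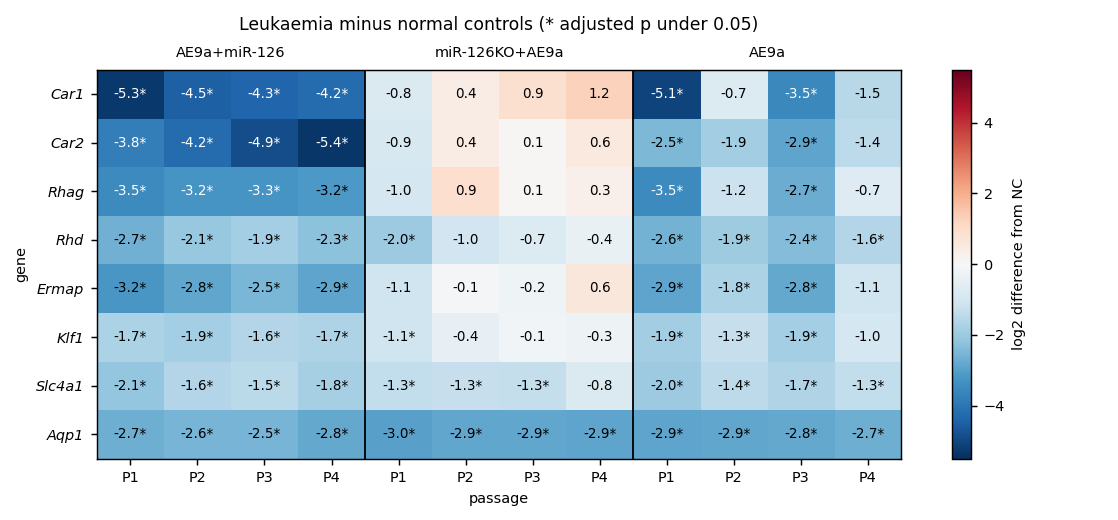
Log2 difference of each gene (rows) from the normal controls in the 12 leukaemia groups (columns, passages 1 to 4 of each arm), with the value printed in each cell and an asterisk where the adjusted p was under 0.05. All 32 AE9a+miR-126 cells carry an asterisk, against 9 of the miR-126KO+AE9a cells and 24 of the AE9a cells.

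Car1, the carbonic anhydrase of low activity in red cells, spanned the widest range of the set, and over the 39 arrays its SD of 2.49 was among the highest of all genes. In AE9a+miR-126 it read 4.15, 4.95 and 4.90 at passage 1, 5.88, 5.54 and 5.10 at passage 2, 5.23, 5.58 and 6.12 at passage 3, and 6.53, 6.28 and 4.50 at passage 4. In miR-126KO+AE9a it read 8.55, 9.39 and 9.61 at passage 1, 11.08, 9.91 and 10.16 at passage 2, 10.78, 11.06 and 10.81 at passage 3, and 11.32, 11.13 and 11.25 at passage 4. Every knockout mouse thus lay above every mouse with added miR-126, and the 6 knockout mice of passages 3 and 4 lay above all 3 controls. AE9a mice read 4.96, 5.02 and 4.71 at passage 1, 7.88, 9.47 and 10.36 at passage 2, 5.27, 6.78 and 7.27 at passage 3, and 10.85, 8.16 and 6.39 at passage 4. The controls read 10.45, 9.18 and 10.32. AE9a alone thus ranged from levels like those with added miR-126 at passage 1 to levels like those of the controls in single mice at passages 2 and 4.

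Against the controls, Car1 was 39.9-fold lower in AE9a+miR-126 at passage 1 (log2 difference -5.32 ± 0.69, adjusted p = 5.29e-06) and 18.6-fold lower at passage 4 (-4.21 ± 0.69, adjusted p = 4.58e-05). In AE9a it was 34.0-fold lower at passage 1 (-5.09 ± 0.69, adjusted p = 1.89e-05) and 11.6-fold lower at passage 3, and it was not called at passage 2 (-0.75) or passage 4 (-1.52, adjusted p = 0.284). Without replicate 1 the AE9a passage 4 difference was -2.71 with an adjusted p of 0.00713. In miR-126KO+AE9a the differences were -0.80, 0.40, 0.90 and 1.25 at passages 1 to 4, and none was called.

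Car2, the highly active carbonic anhydrase of red cells and of several other tissues, was the member furthest below the controls with added miR-126 at passage 4. AE9a+miR-126 mice read 7.60, 3.98 and 6.50 at passage 1, 6.70, 5.64 and 4.58 at passage 2, 5.72, 4.13 and 5.01 at passage 3, and 4.19, 4.55 and 4.75 at passage 4. The knockout mice read 8.03, 9.002 and 9.85 at passage 1, 10.64, 9.19 and 10.93 at passage 2, 9.49, 10.71 and 9.61 at passage 3, and 10.42, 9.90 and 10.91 at passage 4. The lowest knockout mouse lay above the highest mouse with added miR-126. AE9a mice read 7.17, 7.43 and 7.52 at passage 1, 6.40, 8.04 and 9.41 at passage 2, 6.54, 7.07 and 7.27 at passage 3, and 10.68, 7.36 and 7.18 at passage 4, and the controls read 10.33, 9.19 and 10.03. Replicate 1 of AE9a passage 4 was the only AE9a array above all controls for Car2. At passage 4 Car2 was 40.9-fold lower in AE9a+miR-126 than in controls (-5.35 ± 0.80, adjusted p = 1.30e-05). In AE9a it was 5.58-fold lower at passage 1 (adjusted p = 0.0474) and 7.44-fold lower at passage 3 (adjusted p = 0.0181). The passage 1 call was lost on leaving out any one of its 6 arrays (adjusted p 0.0569 to 0.151).

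Rhag, the glycoprotein partner of the Rh proteins, was near its lowest level in every mouse with added miR-126. Those mice read 4.49, 4.64 and 4.64 at passage 1, 5.17, 4.74 and 4.72 at passage 2, 4.45, 4.69 and 5.40 at passage 3, and 4.92, 5.24 and 4.62 at passage 4. Knockout mice read 6.03, 6.45 and 8.89 at passage 1, 8.95, 8.59 and 9.50 at passage 2, 8.07, 8.43 and 8.03 at passage 3, and 8.12, 7.99 and 9.01 at passage 4. The knockout mice of passages 2 to 4 overlapped the controls or lay above them, and 2 of the 3 of passage 1 lay below. AE9a mice read 4.70, 4.56 and 4.57 at passage 1, 5.16, 7.06 and 8.52 at passage 2, 4.58, 5.51 and 5.99 at passage 3, and 9.67, 6.78 and 5.70 at passage 4, while the controls read 8.54, 7.57 and 8.20. Rhag was 11.4-fold lower in AE9a+miR-126 at passage 1 (-3.51 ± 0.71, adjusted p = 0.00118), and 11.3-fold lower in AE9a at passage 1 (adjusted p = 0.00177). In miR-126KO+AE9a the largest difference from the controls was -0.98 at passage 1 (adjusted p = 0.458).

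Rhd, the Rh protein that assembles with Rhag, was called lower than the controls in the knockout arm at passage 1 and at no later passage. AE9a+miR-126 mice read 5.24 to 6.30, with a median of 5.77. In miR-126KO+AE9a it read 5.47, 6.32 and 6.17 at passage 1, 6.97, 6.19 and 7.60 at passage 2, 6.52, 8.09 and 7.07 at passage 3, and 7.32, 7.22 and 8.15 at passage 4. AE9a mice read 5.11 to 7.89 (median 5.59), with replicate 1 of passage 4 the highest; the controls read 8.31, 7.49 and 8.11. The knockout mice of passage 1 lay below all controls (-1.98 ± 0.42, adjusted p = 0.00165), and at passages 2, 3 and 4 the differences of -1.05, -0.74 and -0.41 were not called. Passage 4 was higher than passage 1 within the knockout arm, by 1.58 ± 0.42 (adjusted p = 0.0247). That call was lost without passage 1 replicate 1 (adjusted p = 0.174) or passage 4 replicate 3 (adjusted p = 0.171).

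Ermap, an erythroid membrane protein of the immunoglobulin superfamily that carries the Scianna blood group in humans, followed the same order. It read 5.29 to 6.52 with added miR-126 (median 6.07). In the knockout arm it read 6.70, 8.30 and 8.07 at passage 1, 8.80, 7.84 and 9.42 at passage 2, 8.03, 9.19 and 8.40 at passage 3, and 9.39, 8.90 and 9.89 at passage 4. AE9a mice read 5.66 to 9.61 (median 6.15), where replicate 1 of passage 4 was again the highest, and the controls read 9.27, 8.29 and 8.80. All 12 knockout mice lay above all 12 mice with added miR-126. Against the controls, Ermap was 9.07-fold lower in AE9a+miR-126 at passage 1 (-3.18 ± 0.56, adjusted p = 0.000265) and 7.51-fold lower in AE9a at passage 1 (adjusted p = 0.00101), and no passage of the knockout arm was called.

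Klf1, the erythroid Kruppel-like factor that activates adult globin and many red cell membrane genes, moved over a narrower range. It read 4.56 to 5.11 in the 12 mice with added miR-126, with a median of 4.79. Knockout mice read 5.15, 5.43 and 5.72 at passage 1, 6.41, 5.25 and 6.60 at passage 2, 5.82, 6.88 and 6.46 at passage 3, and 6.03, 5.92 and 6.81 at passage 4. The 12 AE9a mice read 4.46 to 6.48 (median 4.86), and the controls read 6.87, 5.68 and 7.01. Control replicate 2 thus lay below all knockout mice of passages 3 and 4. Klf1 was 3.30-fold lower in AE9a+miR-126 at passage 1 (-1.72 ± 0.34, adjusted p = 0.00107) and 3.77-fold lower in AE9a at passage 1 (adjusted p = 0.000513). In miR-126KO+AE9a it was lower at passage 1 (-1.09 ± 0.34, adjusted p = 0.0351), a call lost on leaving out knockout replicate 1 or 2 or control replicate 1 or 3 (adjusted p 0.0956 to 0.192). At later passages the knockout differences were -0.44, -0.14 and -0.27.

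**Figure D2:**
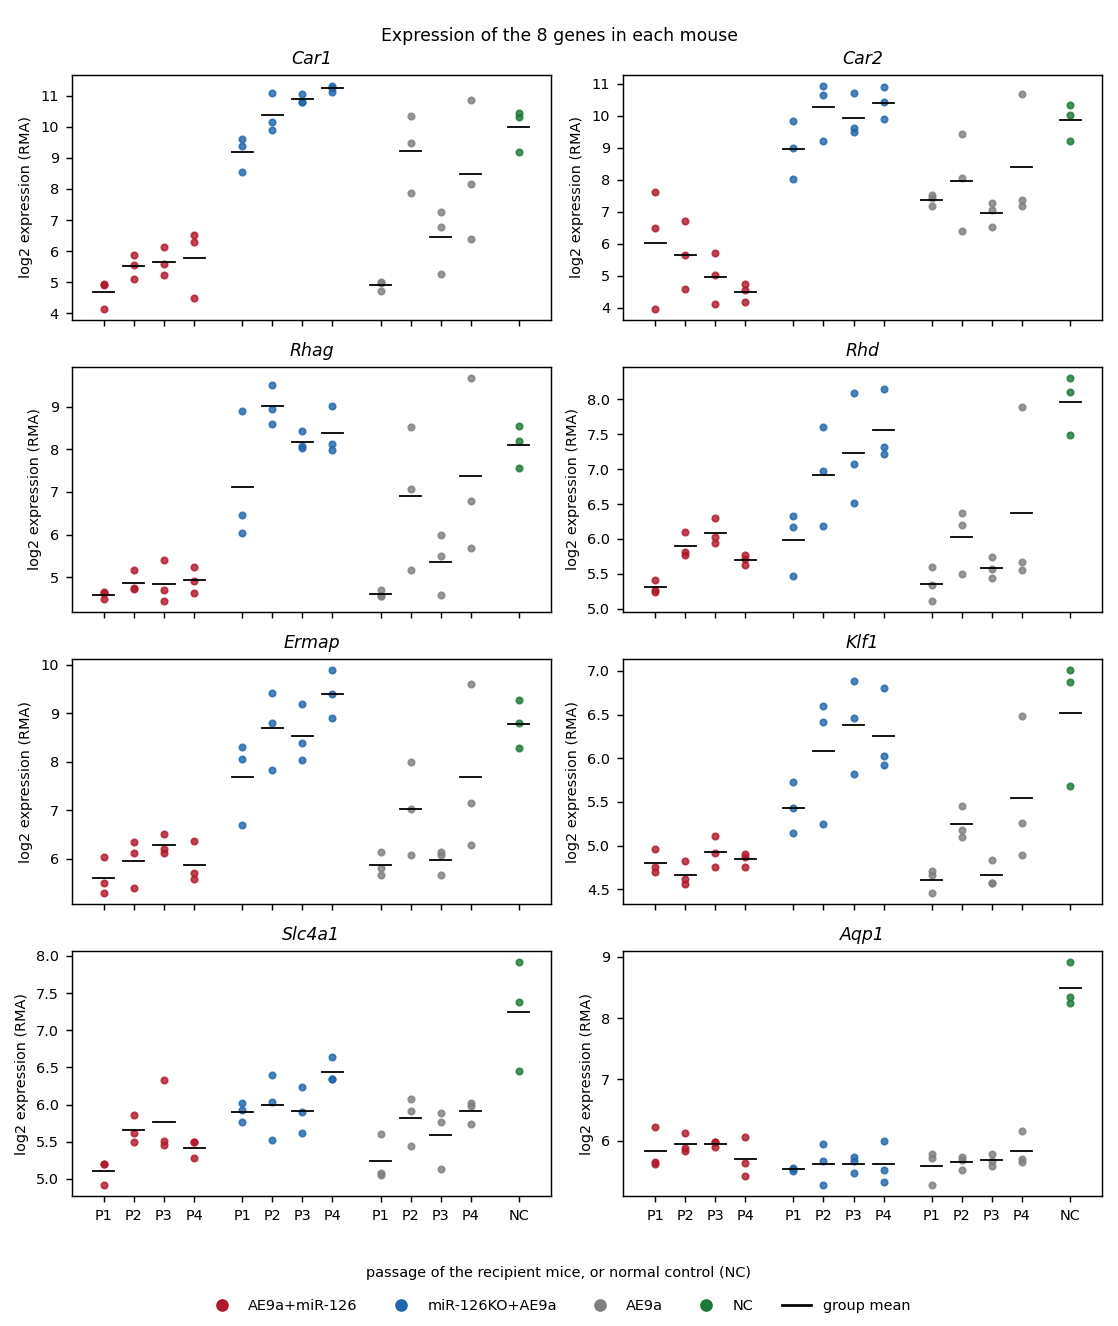
Log2 expression (RMA) of each gene in each mouse, by arm and passage, with normal controls (NC) on the right. Points are mice and lines are the means of 3 mice. For 6 genes no miR-126KO+AE9a group from passage 2 on was called apart from the controls. Among these, most Rhd values at passages 2 and 3 lie below the controls, and Car1 at passages 3 and 4 lies above them. In the knockout mice of passages 2 to 4 Slc4a1 stays below most controls, and Aqp1 stays low in all 36 leukaemia mice.

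Slc4a1, band 3 of the red cell membrane, exchanges chloride for bicarbonate and anchors the membrane skeleton through ankyrin. It read 4.91 to 6.33 with added miR-126, 5.53 to 6.64 in knockout mice and 5.05 to 6.08 in mice with AE9a alone, against 7.91, 7.38 and 6.45 in the controls. The leukaemia arms overlapped each other, and control replicate 3 overlapped the highest knockout mouse. Added miR-126 gave differences of -2.14, -1.59, -1.49 and -1.83 from the controls at passages 1 to 4, all called. The knockout arm was lower at passage 1 (-1.34 ± 0.28, adjusted p = 0.00117), passage 2 (-1.26 ± 0.28, adjusted p = 0.00226) and passage 3 (-1.33 ± 0.28, adjusted p = 0.00173), and not called at passage 4 (-0.80 ± 0.28, adjusted p = 0.0851). AE9a alone was lower at all 4 passages, with differences of -2.00, -1.43, -1.65 and -1.33.

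Aqp1, the water channel of red cells and also of endothelium and kidney, was the exception of the set. It read 5.42 to 6.22 in the 12 mice with added miR-126, 5.27 to 5.99 in the 12 knockout mice and 5.28 to 6.15 in the 12 AE9a mice, against 8.91, 8.34 and 8.25 in the controls. All 36 leukaemia mice lay below all 3 controls by a wide gap, whatever the state of miR-126. At passage 4 Aqp1 was 6.94-fold lower with added miR-126 (-2.80 ± 0.20, adjusted p = 1.47e-10), 7.40-fold lower in the knockout arm (-2.89 ± 0.20, adjusted p = 1.06e-10) and 6.34-fold lower in AE9a (-2.67 ± 0.20, adjusted p = 5.65e-10). It was the only member called lower than the controls in all 12 leukaemia groups. In replicate 1 of AE9a passage 4, where Car1, Car2, Rhag and Ermap exceeded every control, Aqp1 read 6.15.

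The ranking of the 13 groups was alike at the top for the first 6 genes. In each, the controls and miR-126KO+AE9a passages 2 to 4 took the first 4 places. Lower down the order differed by gene, and AE9a+miR-126 passage 3 stood above AE9a passage 3 for Rhd, Ermap and Klf1. For Car1 the group means ran from 11.23 in miR-126KO+AE9a passage 4, through 10.89 and 10.38 at passages 3 and 2, to 9.99 in the controls, 9.24 in AE9a passage 2 and 9.18 in miR-126KO+AE9a passage 1. Below these stood AE9a passages 4 and 3 (8.47 and 6.44), AE9a+miR-126 passages 4, 3 and 2 (5.77, 5.64 and 5.51), AE9a passage 1 (4.90) and AE9a+miR-126 passage 1 (4.67). Neighbours in this order overlapped, except the first pair and the pair of AE9a+miR-126 passage 2 and AE9a passage 1. Each of the other genes was ordered on its own scale only, since levels of different probe sets cannot be set against each other.

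The next question was how these genes differed with the state of miR-126 within AE9a leukaemia. Averaged over the 4 passages, 6 of 8 members were higher in miR-126KO+AE9a than in AE9a, where 2.88% of all genes were higher. Car1 rose 8.94-fold (3.16 ± 0.35, adjusted p = 3.59e-07), Car2 4.65-fold (2.22 ± 0.40, adjusted p = 0.000309), Rhag 4.30-fold (SE of the log2 difference 0.35, adjusted p = 0.000132) and Ermap 3.84-fold (1.94 ± 0.28, adjusted p = 1.74e-05). Rhd rose by 1.09 ± 0.21 (adjusted p = 0.000657) and Klf1 by 1.03 ± 0.17 (adjusted p = 0.000121). Slc4a1 (0.42 ± 0.14, adjusted p = 0.0538) and Aqp1 (-0.09 ± 0.10, adjusted p = 0.751) were not called. The median member difference was 1.52, against 0.01 over all genes. Leaving out replicate 1 of AE9a passage 4 gave the same 6 genes with larger differences, Car1 at 3.46 and Ermap at 2.18.

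With added miR-126, part of the same set was lower than with AE9a alone. Averaged over passages, 4 of 8 members were lower in AE9a+miR-126 than in AE9a, where 24.3% of all genes were lower and the median over all genes was 0.08. Car2 fell by 2.39 on the log2 scale (SE 0.40, adjusted p = 2.30e-05), Car1 by 1.86 (SE 0.35, adjusted p = 8.43e-05), Rhag by 1.26 (SE 0.35, adjusted p = 0.00414) and Ermap by 0.71 (SE 0.28, adjusted p = 0.0318). Rhd (-0.08), Klf1 (-0.20), Slc4a1 (-0.16) and Aqp1 (0.17) were not called. The Ermap call was lost under 12 of the other settings or left-out arrays, AE9a passage 4 replicate 1 among them (-0.47, adjusted p = 0.0822). With the SD of each array as a covariate, or with passage 4 out of the average, Rhag was lost as well and 2 members stayed called.

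By single passage, with 3 mice against 3, AE9a+miR-126 had as many members called at passage 4 as in the average and fewer at passages 1 to 3. In AE9a+miR-126 against AE9a, 0, 1, 1 and 4 members were lower at passages 1 to 4, where 0.00451%, 5.68%, 24.8% and 12% of all genes were lower. They were Car1 at passage 2 (-3.73 ± 0.69, adjusted p = 0.00128), Car2 at passage 3 (-2.00 ± 0.80, adjusted p = 0.0365), and Car1, Car2, Rhag and Ermap at passage 4, with Car2 the furthest (-3.91 ± 0.80, adjusted p = 0.000812). The median member difference was -0.09, -0.83, 0.22 and -1.25 at passages 1 to 4, against -0.01, 0.05, 0.12 and 0.13 over all genes. At passage 3 it was above 0, with Rhd at 0.51, Ermap at 0.32, Klf1 at 0.27 and Slc4a1 at 0.17, none of them called. The Car2 call at passage 3, where all 3 AE9a+miR-126 arrays had an SD under 1.8, was lost with array SD as a covariate (adjusted p = 0.352), under cyclic loess (0.302) and without replicate 2 or 3 of either group (0.08 to 0.129). At passage 2, Car2 and Rhag joined Car1 without replicate 1 of AE9a passage 4. The passage 4 calls of Car1, Rhag and Ermap were lost without replicate 1 of AE9a passage 4 (adjusted p 0.095, 0.162 and 0.238).

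In miR-126KO+AE9a against AE9a, 1, 0, 5 and 1 members were higher at passages 1 to 4, where 1.5%, 1.18%, 0.401% and 0.307% of all genes were higher. Car1 was higher at passage 1 (4.28 ± 0.69, adjusted p = 0.000504), passage 3 (4.44 ± 0.69, adjusted p = 0.000678) and passage 4 (2.77 ± 0.69, adjusted p = 0.0329). At passage 3 Klf1 (1.73 ± 0.34, adjusted p = 0.00785), Ermap (2.57 ± 0.56, adjusted p = 0.0142), Rhag (2.82 ± 0.71, adjusted p = 0.0427) and Rhd (1.65 ± 0.42, adjusted p = 0.0480) joined it. Car2 was higher by 1.59 to 2.98 at the 4 passages without passing (adjusted p 0.0643 to 0.455). The 7 calls became 15 without replicate 1 of AE9a passage 4, 3 without replicate 2 or replicate 3 of miR-126KO+AE9a passage 3, and 4 without replicate 1 or replicate 2 of miR-126KO+AE9a passage 4.

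**Figure D3:**
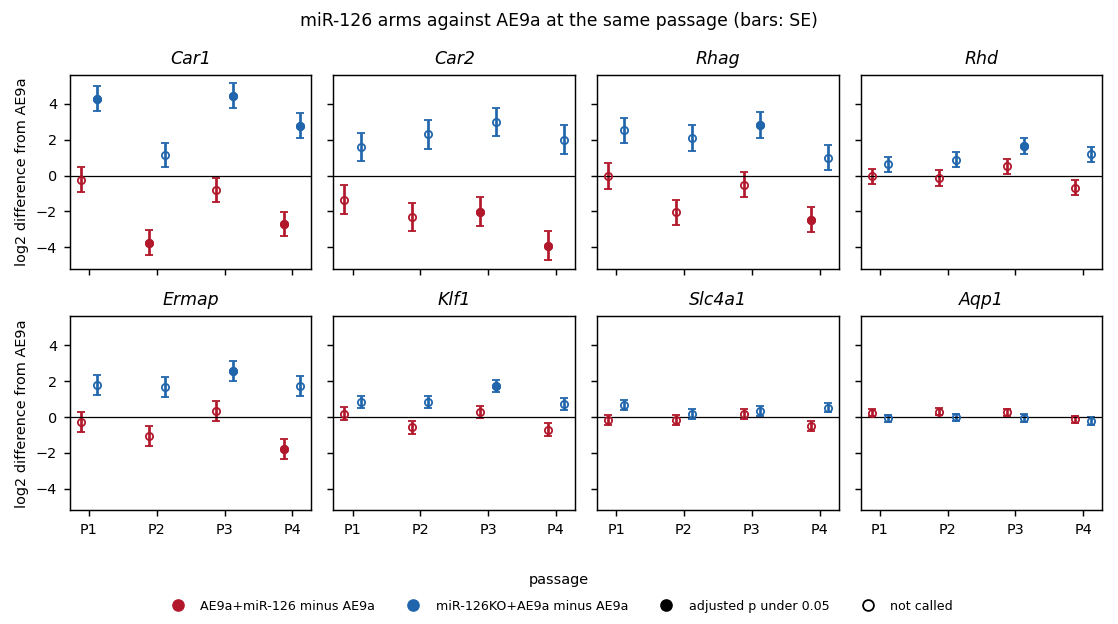
Log2 difference of each miR-126 arm from AE9a at the same passage (x axis), 1 panel per gene, with bars of 1 standard error; filled points have an adjusted p under 0.05. For Car1, Car2, Rhag and Ermap the miR-126KO+AE9a points lie above 0 at all 4 passages, with Car1 at 4.28 at passage 1 and 2.77 at passage 4, and for Aqp1 all points lie within 0.30 of 0.

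Set directly against each other, the arms with miR-126 added and removed had members called apart at every passage. In AE9a+miR-126 against miR-126KO+AE9a, 1, 5, 6 and 7 members were lower at passages 1 to 4, 19 of 32 in all, where 0.433%, 2.24%, 25.4% and 8.3% of all genes were lower. The median member difference was -1.44, -2.08, -1.86 and -2.65, against -0.004, 0.03, 0.17 and 0.10 over all genes. Whether the difference between these arms changed with passage was not tested. Without replicate 1 of AE9a passage 4, 4 members in place of 1 were lower at passage 1. Car1 was lower at each passage, by 22.9-fold at passage 1 (-4.51 ± 0.69, adjusted p = 0.000429) and 44.1-fold at passage 4 (-5.46 ± 0.69, adjusted p = 1.53e-06). Car2 differed 60.2-fold at passage 4 (-5.91 ± 0.80, adjusted p = 4.19e-06). Rhag was lower by 17.6-fold at passage 2 and Ermap by 11.5-fold at passage 4 (adjusted p = 0.000609 and 3.88e-05). Slc4a1 passed at passage 4 alone (-1.02 ± 0.28, adjusted p = 0.0121), and Aqp1 differed by 0.09 to 0.33 with no call. With array SD as a covariate 3 members in place of 6 were lower at passage 3. Leaving out the 8 arrays of SD under 1.8 removed all of AE9a+miR-126 passage 3. Only replicate 3 of that arm was then left at passages 2 and 4, with median member differences of -2.08 and -2.77.

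Few members were called between passages of one arm. At passage 2 against 1, Car1 was higher in AE9a (4.34 ± 0.69, adjusted p = 0.000891), where 238 of 22180 genes were. At passage 3 against 1, Car1 was not called in AE9a (1.55, adjusted p = 0.431). Slc4a1 was higher in AE9a+miR-126 at passage 3 against 1 (0.66 ± 0.28, adjusted p = 0.0442), where 6750 genes were. That Slc4a1 call was lost under quantile normalization and with array SD as a covariate. At passage 4 against passage 1, AE9a+miR-126 had 0 members called (24.3% of all genes changed), miR-126KO+AE9a 1 member (4.04%) and AE9a 2 members (2.94%). Rhd was the knockout member, and Car1 (3.57 ± 0.69, adjusted p = 0.00236) and Rhag (2.78 ± 0.71, adjusted p = 0.0240) were the AE9a members. The Rhag call was lost without AE9a passage 4 replicate 1 (1.63, adjusted p = 0.277) and without any one of the passage 1 arrays (adjusted p 0.0699 to 0.08). In miR-126KO+AE9a, Car1 and Ermap joined Rhd without replicate 1 or replicate 3 of AE9a passage 4. The median member difference was 0.29 in AE9a+miR-126, 1.35 in miR-126KO+AE9a and 1.03 in AE9a, against 0.13, 0.01 and -0.05 over all genes. In AE9a+miR-126 it was 0.11 under quantile normalization. Without the arrays of SD under 1.8 it was -0.04 there, with only replicate 3 left at passage 4. Whether each miR-126 effect changed between passages 1 and 4 was tested as an interaction: 0 members passed for added miR-126 (10.5% of all genes did) and 0 for the knockout (0.428%). The lowest adjusted p among the members was that of Car1 in both, 0.0902 for added miR-126 and 0.802 for the knockout. The largest interaction for added miR-126 was that of Car2, -2.57 ± 1.13 (adjusted p = 0.120).

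Most members varied together from mouse to mouse. As a description over the 39 arrays, which fall into 13 groups, Pearson's r with the mean of the 8 centred members was 0.977 for Ermap, 0.961 for Rhag, 0.953 for Car1, 0.937 for Klf1, 0.915 for Car2, 0.905 for Rhd, 0.756 for Slc4a1 and 0.347 for Aqp1. The mean includes each member itself. Over the 36 leukaemia arrays the value for Aqp1 was -0.236. Among pairs, r was 0.946 for Car1 with Rhag, 0.937 for Rhd with Klf1, 0.929 for Ermap with Klf1 and 0.857 for the neighbours Car1 and Car2. With the group means removed, r was still 0.887 for Rhd with Klf1 and 0.83 for Car1 with Rhag, and it was 0.574 for Car1 with Car2 and 0.143 for Klf1 with Slc4a1.

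**Figure D4:**
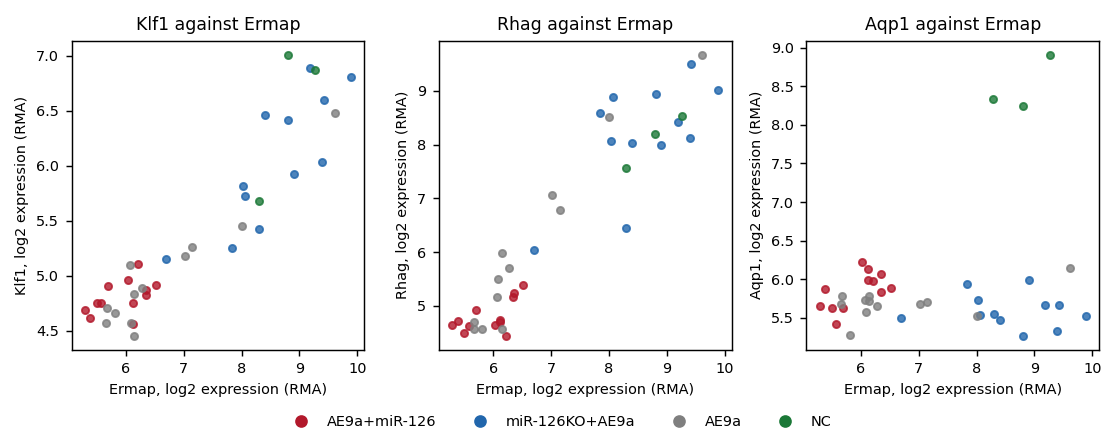
Klf1, Rhag and Aqp1 (y axes) against Ermap (x axes), log2 expression (RMA), 1 point per mouse, coloured by group. Klf1 and Rhag climb with Ermap across all groups (r = 0.929 and 0.941 over 39 arrays), while Aqp1 sets the 3 normal controls apart and stays between 5.27 and 6.22 in leukaemias at any Ermap level.

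Of 5453 genes variable enough to be ranked, the 10 other genes most like the member mean were Kel (r = 0.947), Ank1 (0.931), Slc25a21 (0.920), Sptb (0.918), Cldn13 (0.906), Bcl11a (0.900), Alad (0.897), Cpox (0.897), Septin8 (0.895) and Ces2g (0.893). Kel carries the Kell blood group, Ank1 and Sptb encode ankyrin and spectrin of the red cell skeleton, and Alad and Cpox are enzymes of heme synthesis. Kel was the gene closest to Ermap (r = 0.966), Rhag (0.941) and Car1 (0.908). Car2 was closest to Bcl11a (0.913), Rhd to Slc43a1 (0.927), Klf1 to Cpox (0.922) and Slc4a1 to Hemgn (0.759). The genes closest to Aqp1 were Ly6d (0.926), Nxpe2 (0.911) and Fbxo10 (0.909), and over the leukaemia arrays alone these values were 0.249, 0.355 and 0.292.

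Other genes of the red cell programme were described by list, for the average of miR-126KO+AE9a against AE9a (2.88% of all genes higher and 5.29% lower) first. Among 19 other red cell membrane and skeleton genes measured, 9 were higher and 1 lower; Kel rose by 1.801 ± 0.25 (adjusted p = 1.21e-05), Gypc, a glycophorin, by 0.79, Ank1 by 1.05 and Sptb by 1.20. Of 9 heme synthesis genes, 5 were higher and 1 lower. Alad (1.00 ± 0.18, adjusted p = 0.000251), Cpox (1.02) and the mitochondrial transporter Abcb10 (0.79) rose, and the mitochondrial iron importer Slc25a37 fell by 1.02 on the log2 scale. Among 14 erythroid transcription factors, 3 were higher and 1 lower: Gfi1b rose by 1.30 ± 0.21, Gata1 by 0.71 ± 0.14 and Bcl11a by 0.87 ± 0.20, and Nfe2 fell by 1.00. Of 18 receptors, iron uptake genes and red cell enzymes, 4 were higher and 1 lower. Cd36, a fatty acid receptor, was up by 1.64, the biliverdin reductase Blvrb by 0.98 and the peroxidase Prdx2 by 0.83. The lower gene was Trem3 (-1.03), which stood in the list although it encodes a receptor of myeloid cells.

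Added miR-126 against AE9a, on average, had 4 of the 19 membrane genes lower and 0 higher, with Cd24a at -1.93 ± 0.22 (adjusted p = 8.25e-08), and 5 of the 9 heme genes lower, with Ppox at -0.78 ± 0.15. It had 8 of 14 transcription factors lower and 1 higher, E2f2 falling by 1.25 and Bcl11a by 0.98, and 10 of 18 receptors, iron genes and enzymes lower with 1 higher. Cd36 fell there by 2.49 and the transferrin receptor Tfrc by 0.88. These counts stand against 24.3% of all genes lower and 30.7% higher. In the same comparison 9 of 10 neutrophil markers were lower (median -2.07), with S100a8 at -2.07 ± 0.26, as were 8 of 10 monocyte and macrophage markers and 5 of 7 mast cell and basophil markers. In AE9a+miR-126 at passage 4 against the controls, 11 of 19 membrane genes, 5 of 9 heme genes and 10 of 18 receptors and enzymes were lower, where 14.5% of all genes were. In miR-126KO+AE9a at passage 4 against the controls, 1 of 19, 0 of 9 and 1 of 18 were lower, against 3.63% of all genes, and Cd36 was higher (3.66 ± 0.67, adjusted p = 0.000695).

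Relatives of the members were set against AE9a in the same way. In the knockout average against AE9a, where 2.88% of all genes were higher and 5.29% lower, 1 of 12 other carbonic anhydrases was higher, the mitochondrial Car5b (1.15 ± 0.25, adjusted p = 0.00287). Among 8 other SLC4 transporters Slc4a11 was lower (-0.59 ± 0.10), and neither Rhbg nor Rhcg was called. Of 11 other aquaporins, Aqp11 was higher (0.68) and Aqp3 lower (-0.53). Of 16 other Kruppel-like factors, Klf4 was higher (0.98 ± 0.27, adjusted p = 0.0173), and Klf5 (-2.24 ± 0.31, adjusted p = 1.04e-05) and Klf7 (-0.46) were lower. In the AE9a+miR-126 average against AE9a, where 30.7% of all genes were higher and 24.3% lower, 3 of the 12 carbonic anhydrases were higher and 2 lower, with Car13 at -1.21 ± 0.32. Of the 8 SLC4 transporters 5 were higher and 2 lower, with Slc4a8 at 1.60 ± 0.15, and 4 of the 11 aquaporins were higher and 0 lower, with Aqp4 at 0.61 ± 0.11. Of the 16 Kruppel-like factors 1 was higher and 7 lower, with Klf5 at -1.68 ± 0.31 and Klf3 at -1.35 ± 0.18.

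The adult globin genes are covered by probe sets shared between copies, which stood outside the tests and are given as values. One probe set shared by Hba-a2 and Hba-a1, the adult alpha globin genes, averaged 6.94 ± 0.62 in AE9a+miR-126 passage 4 and 10.4 ± 0.32 in miR-126KO+AE9a passage 4, against 9.62 ± 1.17 in AE9a passage 4 and 11.3 ± 0.25 in the controls (SD, n = 3 each). At passage 1 it averaged 6.70 ± 0.08, 9.97 ± 0.67 and 6.90 ± 0.18 in AE9a+miR-126, miR-126KO+AE9a and AE9a. A second probe set of the same 2 genes stayed between 6.76 and 7.80 in all group means, so the pair disagreed. The 3 probe sets shared by the adult beta globin genes Hbb-b1, Hbb-b2 and Hbb-bs read low, with leukaemia group means of 3.22 to 4.61, against 3.93 ± 0.55, 5.97 ± 0.84 and 4.43 ± 0.85 in the controls. At passage 4 the second of these averaged 3.51 ± 0.07 in AE9a+miR-126 and 3.89 ± 0.31 in miR-126KO+AE9a, against 4.37 ± 1.66 in AE9a, so here the knockout mean was not above that of AE9a. Of the 12 genes of the globin list, its chaperone included, 5 were tested, all of them other than the adult alpha and beta copies. In the AE9a+miR-126 average against AE9a, 3 of these 5 were higher and 0 lower (Hbq1a at 0.61 ± 0.18), and in the knockout average 0 were higher and 1 lower (Hbq1b at -0.29 ± 0.09). The probe set of Alas2 and Apex2, of which Alas2 encodes the first enzyme of heme synthesis in red cells, averaged 4.76 ± 0.13 in AE9a+miR-126 passage 4, 5.52 ± 0.32 in miR-126KO+AE9a passage 4 and 4.72 ± 0.30 in AE9a passage 4, against 6.62 ± 0.50 in the controls. At passage 3 it averaged 4.90 ± 0.32 in AE9a+miR-126, 4.70 ± 0.34 in miR-126KO+AE9a and 4.84 ± 0.30 in AE9a.

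Markers of other cells differed in the same comparisons. In miR-126KO+AE9a against AE9a, averaged, where 5.29% of all genes were lower and 2.88% higher, 10 of 10 neutrophil markers were lower (Cxcr2 at -2.36 ± 0.30, S100a9 at -1.62 ± 0.28), 3 of 6 myeloid progenitor markers were lower (Ctsg, Mpo and Elane), and 2 of 10 monocyte and macrophage markers were higher (Ccr2 and Fcgr1). Of 7 mast cell and basophil markers 2 were higher and 3 lower, of 5 megakaryocyte markers 1 was higher and 1 lower, of 7 T and NK cell markers 4 were lower, and of 7 B cell markers 1 was lower. In AE9a+miR-126 against AE9a, averaged, where 24.3% of all genes were lower and 30.7% higher, 4 of 7 T and NK cell markers were lower and 1 higher, 2 of 6 myeloid progenitor markers were lower and 2 higher, 1 of 7 B cell markers was lower and 1 higher, and 0 of 5 megakaryocyte markers were called, beside the neutrophil, monocyte and mast cell counts above. Only 3 of 11 erythroid markers were measured by a probe set of their own; Gata1 (0.71) and Epb42 (0.50) were higher and Epor (0.55, adjusted p = 0.0654) was not called with the knockout, and with added miR-126 none of the 3 was. The mean of the 10 neutrophil markers on the log2 scale ran at passage 4 from 6.43 to 6.70 in AE9a+miR-126, 9.48 to 10.23 in miR-126KO+AE9a and 10.95 to 11.44 in AE9a, against 11.86 to 11.99 in the controls. The part of these other cells in the results above was not tested.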

How the data were processed

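RNA of 39 mice was hybridised to Affymetrix mouse gene arrays of 1 colour, 1 array per mouse. The deposited log2 values of 27037 probe sets were made by the authors with RMA and Partek 6.0, per the submitters' processing notes. Further steps and array batches are not stated there, and there is no detection call. RMA is meant to put arrays on one distribution, and it shrinks folds of dim probe sets. The deposited arrays still differed in SD (1.43 to 2.08) and in median (5.38 to 5.76). Arm, passage and replicate came from array titles. P-values measure the spread between recipient mice. Probe sets annotated to 1 symbol (23521) were kept and, for 1082 genes with several, the one with the highest mean, leaving 22180 genes. No pair of arrays held identical values. All 39 arrays entered 1 limma model (version 3.58.1, R 4.3.3) with a mean for each of the 13 groups (26 residual degrees of freedom), with Benjamini-Hochberg adjustment over all genes. The fit was tested on simulated data.

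The members and lists were chosen with earlier results of these data known. Named were the 8 members, up to 4 genes per list with the smallest adjusted p, and the 10 genes most like the member mean by Pearson's r (for each member, up to 3 genes) among genes with an SD over 0.5. In the closing section stand fits on the compared groups, replicate blocks, other priors, filters, normalizations, array weights, array SD and left-out arrays or passages. Of listed genes, those without a probe set of their own were not analysed here. Promoter and miRNA sequences are RefSeq's (GRCm38.p6); 5 of 8 members had a promoter window of 250 bases.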

Additional observations from a re-analysis of the deposited data

How the results depend on the processing

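Of 110 called differences between groups in single members, 0 reversed under any of 16 kinds of alternative. Leaving out 1 array aside, 81 stayed called under every kind in which they could be fitted. Whichever array was left out, 87 stayed called, and the number kept under all 16 kinds was not counted. Of 38 others with an unadjusted p under 0.05, 28 passed somewhere. Fitting only the compared groups gave 3 in place of 6 calls for AE9a+miR-126 against AE9a by passage, 0 in place of 2 for passage 4 against 1 in AE9a, and 3 in place of 1 in miR-126KO+AE9a. Array weights gave 12 in place of 6 calls for AE9a+miR-126 against AE9a by passage, 16 in place of 7 for miR-126KO+AE9a against AE9a, 3 in place of 0 and 3 in place of 1 for passage 4 against 1 in those arms, and 2 in place of 0 for the changed effect of added miR-126. A filter on dim genes, which drops Klf1, gave 2 in place of 1 for passage 4 against 1 in miR-126KO+AE9a. With array SD as a covariate, and with passage 4 left out, 2 in place of 4 members were called for the AE9a+miR-126 average. Leaving out 1 array gave 3 to 15 calls for miR-126KO+AE9a against AE9a by passage, 1 to 3 for passage 4 against 1 in AE9a, 0 to 1 in AE9a+miR-126 and 0 to 3 in miR-126KO+AE9a, and 0 to 2 for the changed effect of added miR-126. All groups share one estimate of the spread, so an array outside a comparison can change its calls. The cause was not tested. With the replicate number as a block, 4 in place of 5 members were lower than the controls in AE9a passage 2 (Ermap lost) and 4 in place of 5 higher in miR-126KO+AE9a passage 3 against AE9a (Rhd lost). Taken over all group pairs, the deviations of same-numbered mice had a median r of -0.025, with r over 0.1 in 68 of 234 pairs. The values of r ran from -0.671 to 0.635, and mice of different numbers were not compared. Whether the numbers pair samples in some groups was thus not tested. With 3 mice a group, small differences may not be detectable.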
